A study of Mus musculus with 4 samples.

Results

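7 receptor genes for acetylcholine were followed on microarrays of the mouse dorsal hippocampus: the muscarinic receptor genes Chrm1, Chrm2, Chrm3 and Chrm4 and the nicotinic subunit genes Chrna4, Chrna7 and Chrnb2. They were chosen by name, and a probe was taken as theirs when its RefSeq transcript accession belonged to 1 of these genes. This gave 10 of the 56605 probes on the array, 3 for Chrm1, 2 for Chrm3 and 1 for each of the other 5 genes. The groups were female mice on a 20-fold iodine intake (2 arrays, replicates 2 and 3) and female control mice (2 arrays, replicates 2 and 3), with RNA taken from the dorsal hippocampus of both after a series of behavioural tests. The labels give no strain, age, timing or route of the iodine intake and no iodine level for the controls, and whether replicates were different animals is not stated, so a p-value here covers the spread between these samples alone, possibly technical. Other replicate numbers were not analysed here.

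Acetylcholine reaches the hippocampus mostly from the medial septum and diagonal band. It acts there through muscarinic receptors, which are coupled to G proteins, and nicotinic receptors, which are ion channels made of subunits. The products of Chrm1 and Chrm3 couple to Gq proteins and phospholipase C, and those of Chrm2 and Chrm4 couple to Gi proteins, which lower cyclic AMP and open potassium channels. Chrna7 encodes a subunit that forms a calcium-permeable channel by itself, while the products of Chrna4 and Chrnb2 assemble together into the main high-affinity nicotine receptor of the brain.

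No probe of a receptor gene passed the test of 20-fold iodine against control. Of the 10 probes, 9 differed by less than the larger gap between arrays of 1 group. The share of all probes that did so was not counted. A difference above both gaps needs groups that do not overlap, so at most 41.6% of all probes could have had it. All 10 probes were well above background on all 4 arrays, so both groups gave a measured level for all 7 genes. None of the 10 passed in limma's fit across 38228 probes (smallest adjusted p of a receptor probe = 0.656, and 0 of 10 with an unadjusted p under 0.05), where 0% of all probes passed the adjusted threshold of 0.05 and 9.03% had an unadjusted p under 0.05. The median log2 difference of the 10 probes, 20-fold iodine minus control, was 0.017, beside 0.0092 over all probes. It was 0.10 without control replicate 2, -0.012 without control replicate 3, 0.051 without 20-fold iodine replicate 3 and 0.067 after normexp, another background correction. Differences ran from -0.11 to 0.29, with 7 probes higher and 3 lower, where 52.4% of all probes were higher. For 2 of the 10 probes the arrays of 1 group lay wholly above the other, both higher in 20-fold iodine, against 41.6% of all probes without such overlap (23.2% higher and 18.4% lower). With 2 arrays a group the fit cannot exclude moderate changes, and each gene's 95% confidence interval is given below.

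A single slide, scanned once, held the 4 arrays, with the 20-fold iodine samples in slide columns 3 and 4 and the controls in columns 1 and 2, so slide position and group cannot be told apart. Between 37533 and 37921 probes were well above background on each array, and Pearson's r between arrays over the fitted probes was 0.994 to 0.995. Levels are given as the log2 of the processed signal minus the array's 75th percentile, so that 0 is the 75th percentile of the probes. On this scale the lowest probe counted as well above background stood at -5.01 and -5.01 on the 20-fold iodine arrays and at -5.15 and -5.07 on the control arrays. A probe's brightness depends on its own sequence as well as on the transcript, so no order of levels between receptors is drawn. In whole tissue, fewer cells of a type and less RNA per cell cannot be told apart.

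**Figure D1:**
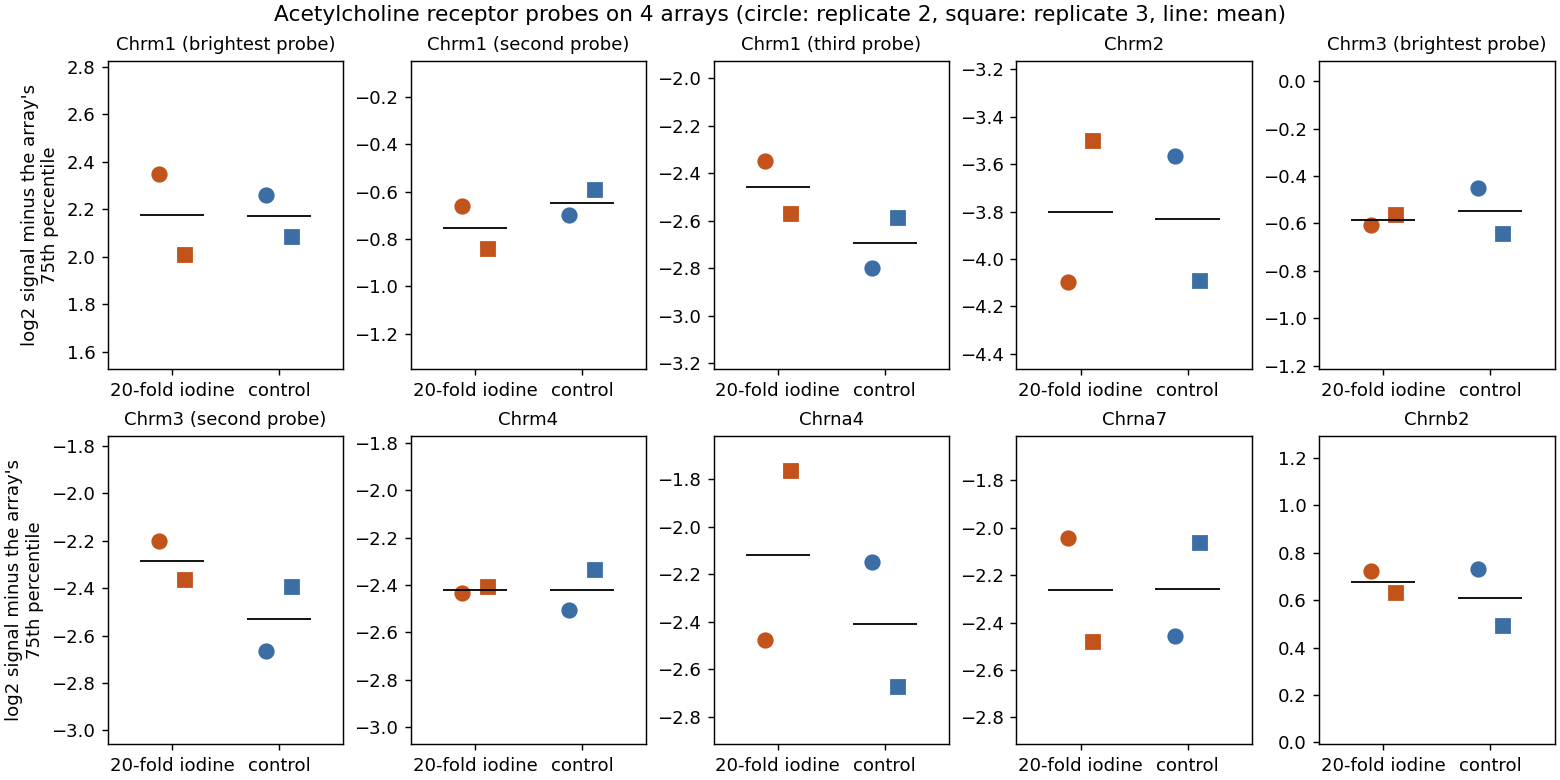
Each panel plots 1 probe, with the log2 signal minus the array's 75th percentile on the vertical axis, the 20-fold iodine arrays on the left and the control arrays on the right (circles replicate 2, squares replicate 3, lines the group means). All panels span the same number of log2 units, and the groups are separate in only 2 panels, the third probe of Chrm1 and the second probe of Chrm3.

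Among the Gq-coupled receptors, Chrm1 (gene ID 12669, chromosome 19) encodes the M1 receptor, the main muscarinic receptor of hippocampal pyramidal cells. Its brightest probe, A_55_P2055262, read 2.35 and 2.01 on the 20-fold iodine arrays, against 2.26 and 2.08 on the control arrays. The control values lay inside the range of the 20-fold iodine values, and the difference was 0.0054 ± 0.15 (SE, n = 2 per group), with a 95% confidence interval of -0.41 to 0.42. A second probe of the same transcript, A_52_P85372, read -0.66 and -0.84 on the 20-fold iodine arrays, against -0.70 and -0.59 on the control arrays. These groups overlapped too, with a difference of -0.11 ± 0.11 (interval -0.39 to 0.18). With 1 array left out this difference ranged from -0.20 to -0.014.

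The third Chrm1 probe, A_52_P393577, belongs to another RefSeq transcript of the gene, NM_007698. It read -2.35 and -2.57 on the 20-fold iodine arrays, against -2.80 and -2.59 on the control arrays. Both 20-fold iodine arrays were above both control arrays, by as little as 0.018 between the nearest pair, and the difference was 0.24 ± 0.13 (limma, unadjusted p = 0.142, adjusted p = 0.662). The probes of Chrm1 therefore disagreed in sign, 2 with a positive and 1 with a negative difference, and the mean over the 3 probes differed by 0.045. Where on the transcripts these probes lie was not analysed here.

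Chrm3 (gene ID 12671, chromosome 13) encodes the M3 receptor, which also acts through Gq. Its brightest probe, A_55_P1955681, read -0.61 and -0.56 on the 20-fold iodine arrays, against -0.45 and -0.64 on the control arrays. Both 20-fold iodine values lay between the control values, and the difference was -0.038 ± 0.10 (interval -0.32 to 0.24). The second probe, A_51_P247853, names the same transcript and gave the smallest p of the 10 probes. It read -2.20 and -2.37 on the 20-fold iodine arrays, against -2.67 and -2.39 on the control arrays, and the nearest pair were 0.027 apart. Its difference was 0.25 ± 0.13 (limma, unadjusted p = 0.136, adjusted p = 0.656, interval -0.12 to 0.61), larger than that of 81.3% of all probes in size.

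The size of those differences depended on single arrays. Without control replicate 2 the second Chrm3 probe differed by 0.11 and the third Chrm1 probe by 0.13, and without 20-fold iodine replicate 2 they differed by 0.16 and 0.12. They differed by 0.38 and 0.34 without control replicate 3, and by 0.33 and 0.35 without 20-fold iodine replicate 3. In both genes the brighter probe showed no such separation. The dim probes read 24.3 to 29.4 (the third Chrm1 probe) and 28.0 to 32.6 (the second Chrm3 probe) on the 20-fold iodine arrays, against 22.8 to 25.6 and 25.0 to 29.3 on the control arrays, in units of processed signal before scaling.

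Among the Gi-coupled receptors, Chrm4 (gene ID 12672, chromosome 2) encodes the M4 receptor. Its probe, A_52_P88054, read -2.43 and -2.41 on the 20-fold iodine arrays, against -2.51 and -2.34 on the control arrays. The 20-fold iodine values lay between the control values. The difference of 0.0013 ± 0.097 had a 95% confidence interval of 0.834-fold to 1.20-fold, the narrowest of the 10.

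Chrm2 (gene ID 243764, chromosome 6) encodes the M2 receptor, which on cholinergic terminals limits the release of acetylcholine. Its probe, A_55_P2055284, was the dimmest of the set, with processed signals of 8.74 and 12.7 on the 20-fold iodine arrays and 13.4 and 9.03 on the control arrays, 1.89 to 2.83 times and 1.96 to 3.00 times the lowest signal called well above background there. On the scaled log2 axis it read -4.10 and -3.50 on the 20-fold iodine arrays, against -3.57 and -4.09 on the control arrays. The arrays fell into a low and a high level with 1 array of each group in each. The difference was 0.029 ± 0.28, with a 95% interval of 0.598-fold to 1.74-fold, and it was -0.27 without 20-fold iodine replicate 3 and 0.33 without 20-fold iodine replicate 2.

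**Figure D2:**
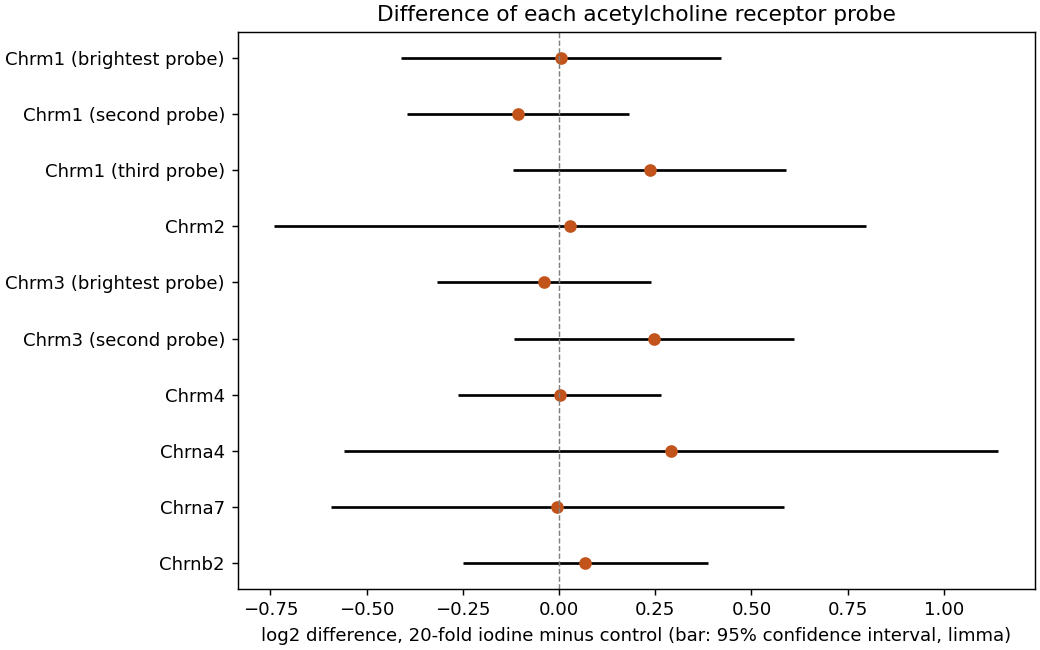
Points are the log2 differences of the 10 receptor probes, 20-fold iodine minus control, and bars are 95% confidence intervals from limma with 2 arrays per group. All 10 intervals include 0, from the narrow interval of Chrm4 (-0.26 to 0.27) to the wide ones of Chrm2 (-0.74 to 0.80) and Chrna4 (-0.56 to 1.14).

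The nicotinic subunit gene Chrna4 (gene ID 11438, chromosome 2) had the largest difference of the 10 probes and the widest spread. Its probe, A_52_P350750, read -2.48 and -1.76 on the 20-fold iodine arrays, against -2.15 and -2.67 on the control arrays. The groups overlapped, since 20-fold iodine replicate 2 was below control replicate 2. The gap between the 20-fold iodine arrays was 0.71 and that between the control arrays 0.53, both larger than the difference between the groups of 0.29 ± 0.31 (limma, unadjusted p = 0.403, adjusted p = 0.818, interval 0.678-fold to 2.21-fold). Without 20-fold iodine replicate 3 the difference was -0.064, without control replicate 3 it was 0.027, while leaving out control replicate 2 gave 0.55 and leaving out 20-fold iodine replicate 2 gave 0.65.

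Chrnb2 (gene ID 11444, chromosome 3), whose product pairs with that of Chrna4, varied less. Its probe, A_52_P222026, read 0.72 and 0.63 on the 20-fold iodine arrays, against 0.73 and 0.49 on the control arrays. Both 20-fold iodine values lay between the control values, and the difference was 0.068 ± 0.12 (interval -0.25 to 0.39). The span over the 4 arrays was 0.24 for Chrnb2 and 0.91 for Chrna4.

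Chrna7 (gene ID 11441, chromosome 7) read -2.04 and -2.48 on the 20-fold iodine arrays with its probe A_51_P108228, against -2.46 and -2.06 on the control arrays. As with Chrm2, each group held a low and a high array. The difference between the groups was -0.0043 ± 0.22 (interval -0.59 to 0.58), whereas the gap within the groups was 0.44 and 0.39. It changed sign with the array left out, at -0.22 without 20-fold iodine replicate 2 and 0.22 without 20-fold iodine replicate 3.

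Chrna4, Chrm2 and Chrna7, the genes with the widest span over the arrays by their brightest probes, varied along the same split of the arrays, which crossed the groups. Chrna4 and Chrm2 were above their 4-array means on 20-fold iodine replicate 3 (by 0.50 and 0.31) and control replicate 2 (by 0.12 and 0.25), and below them on 20-fold iodine replicate 2 and control replicate 3. Chrna7 ran the other way, with 0.22 and -0.22 on 20-fold iodine replicates 2 and 3 and -0.19 and 0.20 on control replicates 2 and 3. Chrna4 is strongly expressed in the thalamus, so markers of thalamus and habenula were read on the same arrays. Their median deviations were -0.32 and 0.51 on 20-fold iodine replicates 2 and 3, against 0.031 and -0.29 on control replicates 2 and 3. Both Chrna4 and the list were highest on 20-fold iodine replicate 3 and next highest on control replicate 2. Choroid plexus markers were too, and their median deviations were wider. These were -1.19 and 0.93 on 20-fold iodine replicates 2 and 3, against 0.26 and 0.15 on control replicates 2 and 3. Of the 15 thalamus and habenula genes 14 were fitted, 10 higher and 4 lower, where 45.7% of all genes were higher. Their summed signal in units of the 75th percentile was 41.5 and 51.6 on the 20-fold iodine arrays, against 48.1 and 37.1 on the control arrays. Of the brightest markers, Rora read 2.20 and 3.04 on the 20-fold iodine arrays, against 2.67 and 2.37 on the control arrays. Pou4f1 read 4.57 and 4.16, against 4.66 and 4.23. With 1 of its 2 probes fitted, Pou4f1 gave the largest part of the summed signal on every array. It was lowest on 20-fold iodine replicate 3, where the median of the list was highest. Of genes enriched in the habenula, Gpr151 had no fitted probe and Chrna3 and Chrnb3 were not well above background on any array. Chrnb4, also enriched there, was well above background on all 4 arrays, at -3.13 and -2.76 on the 20-fold iodine arrays, against -2.95 and -2.89 on the control arrays, and Tac2 read 0.41 and 0.31, against 0.48 and 0.33. The part of thalamic tissue in the Chrna4 values was not tested.

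**Figure D3:**
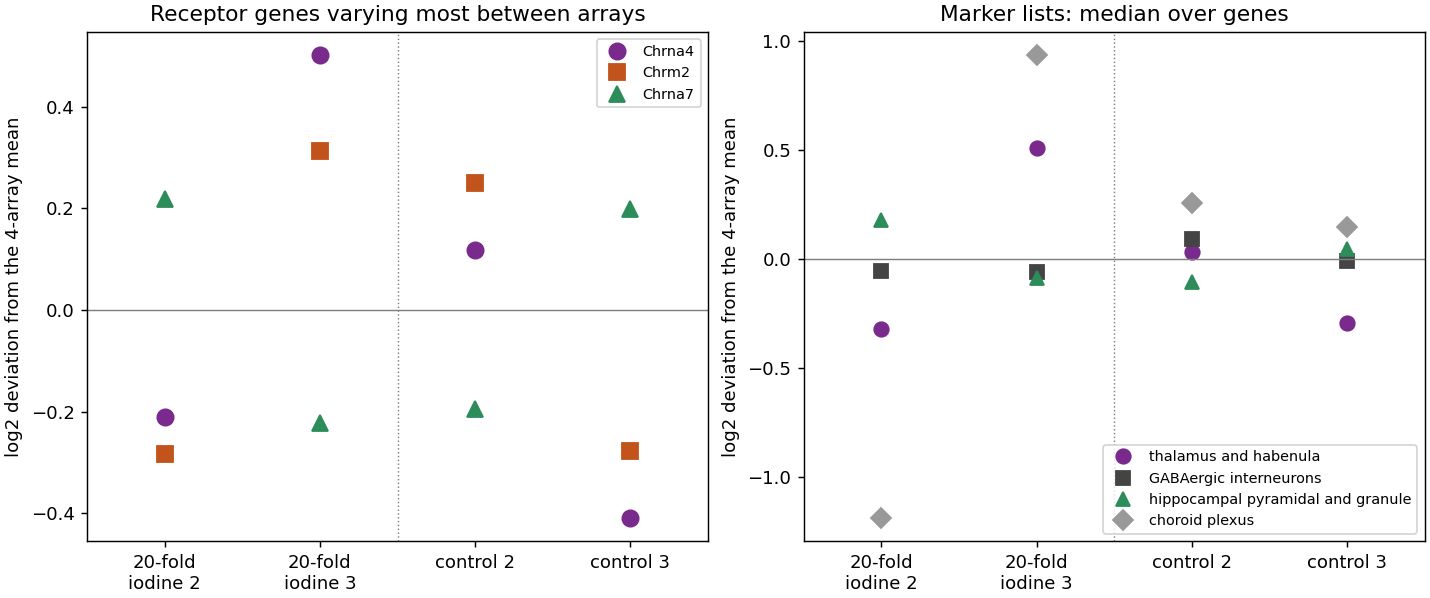
Both panels plot log2 deviations from the 4-array mean for each array, the 20-fold iodine arrays left of the dotted line and the control arrays right of it. On the left are the brightest probes of Chrna4, Chrm2 and Chrna7, and on the right the median over the genes of 4 marker lists. Chrna4, the thalamus and habenula list and the choroid plexus list were highest on 20-fold iodine replicate 3 (0.50, 0.51 and 0.93), while Chrna7 was at -0.22 there.

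Markers of the dissected tissue and of other cell types were read on the same arrays. The 14 markers of hippocampal pyramidal and granule cells were all well above background on all 4 arrays, with a median difference of 0.066 and summed signals of 132.3 and 121.7 on the 20-fold iodine arrays, against 116.3 and 122.4 on the control arrays, and Pcp4 and Zbtb20 were the brightest. Of the hippocampal markers 9 were higher and 5 lower, where 45.7% of all genes were higher. GABAergic interneuron markers, led by Cck and Sst, had a median of -0.11 over 12 genes, 3 higher and 9 lower. Choroid plexus markers, led by Ttr and Folr1, had a median of -0.36 over 11 genes, 0 higher and 11 lower. They ranged most, with summed signals of 55.6 and 279.2 on the 20-fold iodine arrays, against 168.8 and 149.5 on the control arrays. Meningeal fibroblast markers, led by Dcn and Slc13a4, had -0.28 over 11 genes, 1 higher and 10 lower. Their summed signals were 18.5 and 34.8 on the 20-fold iodine arrays, against 28.7 and 36.3 on the control arrays. Microglia markers had 0.0043 over 10 (6 higher, 4 lower) and oligodendrocyte markers 0.090 over 8 (5 higher, 3 lower). Astrocyte markers, led by Aldoc and Slc1a3, had 0.022 over 8, 4 higher and 4 lower. All 8 were without overlap between the groups, where 39.9% of all genes had none. None of these lists held a gene past the adjusted threshold, nor did that of thalamus and habenula. At an unadjusted p under 0.05 in limma, 1 hippocampal, 2 astrocyte and 1 oligodendrocyte markers were higher. At the same limit 1 interneuron and 1 oligodendrocyte marker were lower, and the other lists held 0. Of all genes 6.36% had such a p, 3.48% higher and 2.88% lower. The median over all 16793 genes, each by its brightest fitted probe, was -0.014. Their part in the receptor values was not tested.

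The genes whose pattern over the 4 arrays was most like that of a receptor were named for the members whose brightest probe spanned at least 0.5 log2 units, which were Chrna4 and Chrm2. For Chrna4 they were Mei1, Loxhd1 and Cux2 (Pearson's r = 0.9998, 0.9995 and 0.9992), and for Chrm2 Gm10229, Tcap and Agrp (0.9977, 0.9972 and 0.9965). Of the 2817 genes of that span compared, 79 had r over 0.95 with Chrna4 and 88 with Chrm2. With only 4 arrays, r this high can also arise between unrelated genes. The likeness is a description, and no link between these genes was tested.

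The promoters of Chrna4, Chrm2, Chrna7 and Chrnb2 are shown because the first 3 varied together or in opposition over the arrays and Chrnb2 did not. That grouping was taken from these same arrays, with Chrm2 near background, and shared control of the genes was not tested. The hexamer AGGTCA was searched because iodine is a constituent of thyroid hormone, whose receptor binds this hexamer. Each run is the RefSeq window (GRCm38.p6) from 250 bases before to 50 after an annotated start, 5′ to 3′ on the gene's strand. Capitals mark AGGTCA and the GC box GGGCGG, which binds SP1, on either strand (TGACCT and CCGCCC on the other). In the runs shown the motifs did not overlap each other.
Chrna4, chr2:181039128-181039427, minus strand: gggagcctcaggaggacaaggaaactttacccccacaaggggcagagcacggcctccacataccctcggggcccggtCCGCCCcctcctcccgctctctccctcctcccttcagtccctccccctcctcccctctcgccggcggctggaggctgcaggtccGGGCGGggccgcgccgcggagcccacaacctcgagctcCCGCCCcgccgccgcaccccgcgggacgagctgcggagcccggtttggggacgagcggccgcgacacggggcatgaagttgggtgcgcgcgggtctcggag
Chrm2, chr6:36387834-36388133, plus strand: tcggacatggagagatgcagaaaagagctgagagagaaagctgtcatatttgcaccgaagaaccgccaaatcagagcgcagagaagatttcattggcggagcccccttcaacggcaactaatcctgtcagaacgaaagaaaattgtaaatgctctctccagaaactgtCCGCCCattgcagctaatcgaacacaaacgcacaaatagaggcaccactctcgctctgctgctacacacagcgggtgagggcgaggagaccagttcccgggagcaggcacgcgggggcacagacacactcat
Chrna7, chr7:63212477-63212776, minus strand: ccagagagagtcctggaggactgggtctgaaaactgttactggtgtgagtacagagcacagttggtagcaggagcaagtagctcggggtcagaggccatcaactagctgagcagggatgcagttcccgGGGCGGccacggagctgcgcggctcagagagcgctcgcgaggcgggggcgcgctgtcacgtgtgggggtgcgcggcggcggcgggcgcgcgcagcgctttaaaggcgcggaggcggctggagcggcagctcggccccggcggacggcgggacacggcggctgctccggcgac
Chrnb2, chr3:89764583-89764882, minus strand: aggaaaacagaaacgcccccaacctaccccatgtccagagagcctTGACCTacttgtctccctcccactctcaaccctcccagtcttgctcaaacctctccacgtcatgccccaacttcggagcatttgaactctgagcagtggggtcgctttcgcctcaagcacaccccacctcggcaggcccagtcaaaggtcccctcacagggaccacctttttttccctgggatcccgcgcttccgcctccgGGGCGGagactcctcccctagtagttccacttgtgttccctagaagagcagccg
Windows were matched for 6 of the 7 genes, all but Chrm1. The hexamer AGGTCA was in the window of Chrnb2 only, at position -205 from the start, and in 16.3% of 32851 windows of the same length. The GC box was in 5 of the 6, all but Chrm3, with 4 matches in Chrm4, 3 in Chrna4 and 1 each in Chrm2, Chrna7 and Chrnb2, and in 35.7% of all windows. CpG pairs numbered 35 in Chrna7, 33 in Chrna4, 30 in Chrm4, 16 in Chrm2, 12 in Chrnb2 and 11 in Chrm3, where the median window held 7. These are matches of letters in 1 window per gene and no measure of binding.

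The other nicotinic subunit genes were detected in part. Of 13 on the list 7 had a fitted probe, and Chrna3, Chrna10, Chrnb1, Chrnb3, Chrnd and Chrng were not well above background on any array. None of the 7 passed limma's adjusted threshold (0% of genes by their brightest probe passed it), and 4 were higher and 3 lower, where 45.7% of all genes were higher, with a median of 0.021. At an unadjusted p under 0.05, 3 were higher and 0 lower, where 6.36% of all genes passed that limit, 3.48% higher and 2.88% lower. Chrna2, a subunit found in a class of hippocampal interneurons, read -0.96 and -0.84 on the 20-fold iodine arrays, against -1.16 and -1.22 on the control arrays (difference 0.30 ± 0.089, limma unadjusted p = 0.0268, adjusted p = 0.532). Chrne, a subunit of the muscle receptor, read -0.63 and -0.50, against -0.84 and -0.84 (difference 0.28 ± 0.090, adjusted p = 0.538), and Chrna1, another muscle subunit that was picked after its values were seen, -2.80 and -2.94, against -3.10 and -3.18 (difference 0.27 ± 0.094, adjusted p = 0.545). In these 3 genes both 20-fold iodine arrays were above both control arrays. Chrna5, picked after its values were seen, was the other one without overlap, and it was lower in 20-fold iodine, at -3.64 and -3.81, against -3.41 and -3.63 on the control arrays. That made 4 of 7, where 39.9% of all genes had no overlap between the groups in 1 direction or the other. The remaining muscarinic gene, Chrm5, read -4.00 and -3.60 on the 20-fold iodine arrays, against -3.82 and -3.65 on the control arrays, a difference of -0.069 ± 0.17.

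Genes that make, store or break down acetylcholine included the lowest unadjusted p of the pathway. Of 11 on the list 10 were fitted, 8 higher and 2 lower with a median of 0.061, 0 past the adjusted threshold and 1 higher at an unadjusted p under 0.05, where 45.7% of all genes were higher and 6.36% had such a p (3.48% higher). That gene was Bche, which encodes butyrylcholinesterase, an enzyme that hydrolyses acetylcholine and other choline esters. It read -0.60 and -0.64 on the 20-fold iodine arrays, against -0.998 and -1.12 on the control arrays, and both 20-fold iodine arrays were higher. The difference was 0.44 ± 0.088 (limma, unadjusted p = 0.00659, adjusted p = 0.518). A second Bche probe, well above background on 3 of the 4 arrays, gave 0.87 ± 0.43 (limma, unadjusted p = 0.11, adjusted p = 0.63). That probe read -4.58 and -4.45 on the 20-fold iodine arrays, against -5.996 and -4.77 on the control arrays. Much of its difference came from control replicate 2, where it lay below the lowest signal called well above background (-5.15). Prima1, which anchors acetylcholinesterase in the membrane, differed by 0.29 ± 0.15, with -1.03 and -1.32 on the 20-fold iodine arrays, against -1.59 and -1.34 on the control arrays. This difference of its brightest probe was 0.15 without 20-fold iodine replicate 2 and 0.17 without control replicate 2. It was at most 0.44 with any 1 array left out. Over all 4 arrays the 3 fitted Prima1 probes differed by 0.28 to 0.41.

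Markers of the septal neurons that supply acetylcholine were read as a check on cholinergic cell bodies. Of the 9 genes 6 were fitted, 4 higher and 2 lower with a median of 0.060, where 45.7% of all genes were higher. Their summed signals were 1.75 and 1.95 on the 20-fold iodine arrays, against 1.98 and 1.94 on the control arrays. Slc5a7, the choline transporter of cholinergic neurons, was not well above background on any array, and Slc18a3, the vesicular transporter, stood near the floor at -3.95 and -3.89, against -3.88 and -4.08. The 3 probes of Chat, the gene of choline acetyltransferase, differed by -0.22, -0.16 and 0.099, and 1 of them was far brighter than the others, at 0.068 and -0.029 on the 20-fold iodine arrays, against 0.26 and 0.094 on the control arrays. That probe gave most of the summed signal of the list, and what it measures was not checked, since its sequence was not analysed here. Ngfr, the next brightest of the list, which encodes a neurotrophin receptor, read -2.06 and -1.65 on the 20-fold iodine arrays, against -1.84 and -1.33 on the control arrays.

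No gene of receptor assembly or of signalling below the receptors passed the adjusted threshold either. Of all genes by their brightest probe, 45.7% were higher, 0% passed the adjusted threshold and 6.36% had an unadjusted p under 0.05. The assembly and modulation list holds chaperones such as Ric3 and Tmem35a and the Lynx1 family. It had 15 of 15 genes fitted, 5 higher and 10 lower with a median of -0.070. The list had 0 genes past the adjusted threshold and 0 at an unadjusted p under 0.05. Its smallest p values were those of Ubxn2a, at -0.20 ± 0.11 with another probe at 0.12, and Ly6e, at 0.15 ± 0.10. With 1 array left out, Ubxn2a ranged from -0.31 (without control replicate 3) to -0.10 (without control replicate 2) and Ly6e from 0.071 (without 20-fold iodine replicate 2) to 0.23 (without 20-fold iodine replicate 3). The Gq-side list had 15 of 15 fitted, 10 higher and 5 lower with a median of 0.033, and 0 at either limit, beside the same shares of all genes. There Plcb4, a phospholipase C, read -1.20 and -0.68 on the 20-fold iodine arrays, against -1.27 and -1.55 on the control arrays (0.47 ± 0.22), and Rgs2, which restrains Gq, 3.14 and 3.18, against 3.30 and 3.37 (-0.17 ± 0.082). The difference of Plcb4 was 0.21 without 20-fold iodine replicate 3 and 0.73 without 20-fold iodine replicate 2. Another Plcb4 probe differed by 0.55 over all 4 arrays.

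The Gi-side list had 17 of 17 genes fitted, 9 higher and 8 lower with a median of 0.036, 0 past the adjusted threshold and 2 higher at an unadjusted p under 0.05. Of all genes 45.7% were higher, and 6.36% had an unadjusted p under 0.05 (3.48% higher). These 2 were Gnb1, a G protein beta subunit, and Kcnj6, a potassium channel subunit opened by Gi-coupled receptors. Kcnj6 read -0.78 and -0.95 on the 20-fold iodine arrays, against -1.23 and -1.10 on the control arrays (difference 0.30 ± 0.11, adjusted p = 0.546 in limma). Gnb1 read 3.48 and 3.42, against 3.21 and 3.20 (difference 0.25 ± 0.080, adjusted p = 0.538 in limma), and its other probe differed by -0.054. Kcnj3, a channel subunit that works with the product of Kcnj6, stood at -0.24 ± 0.11 with another probe at 0.22, a gene picked after its values were seen.

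**Figure D4:**
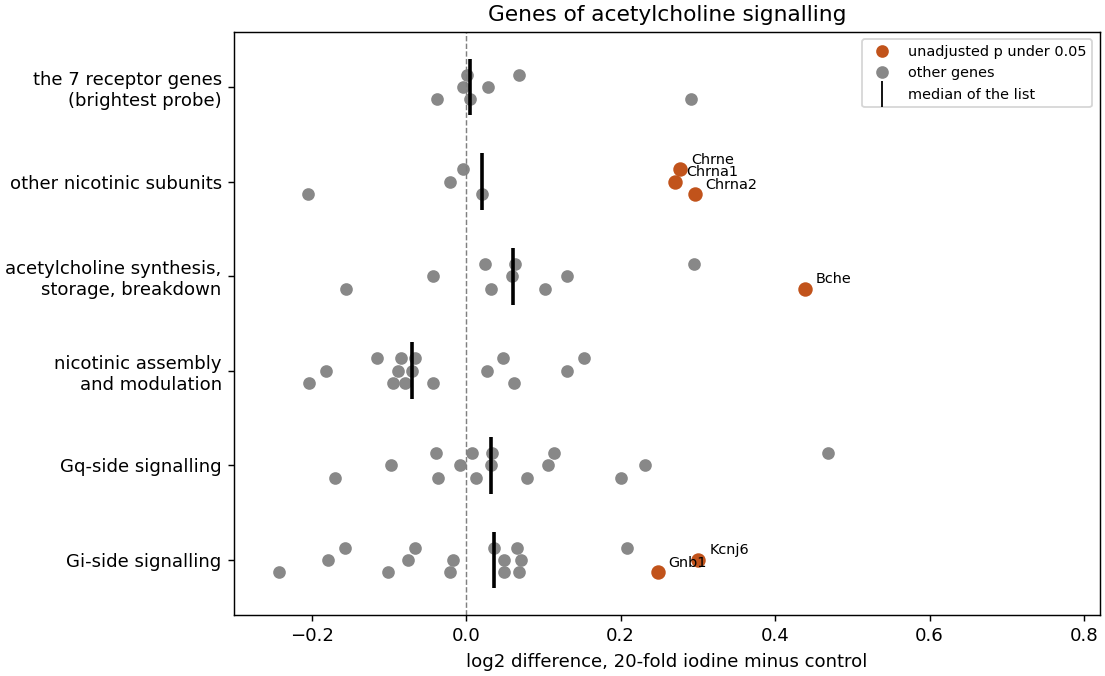
Each point is a gene by its brightest fitted probe, placed by its log2 difference, 20-fold iodine minus control, with the list's median as a black line and genes with an unadjusted p under 0.05 in orange. The 7 receptor genes lie between -0.038 and 0.29, and Bche stands farthest right among the orange points at 0.44.

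**Figure D5:**
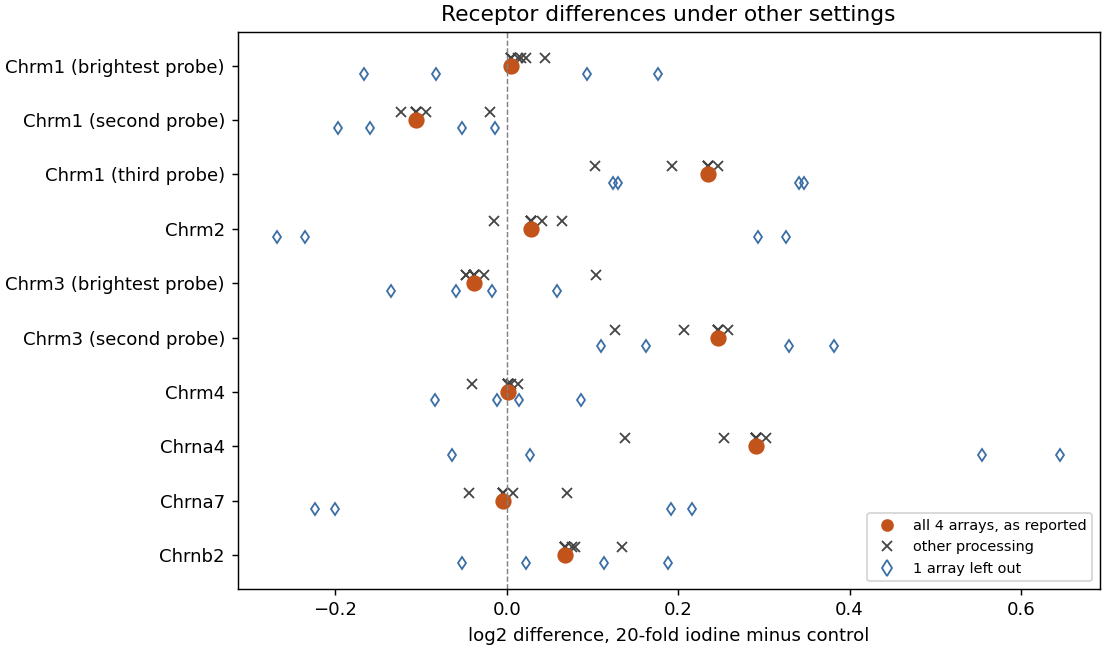
The log2 difference of each receptor probe, 20-fold iodine minus control, is drawn for the fit to all 4 arrays (circles), for other processing (crosses) and with 1 array left out (diamonds). For the brightest Chrm1 and Chrm3 probes, 1 cross each (0.045 and 0.10) is the mean over the gene's probes. The diamonds of Chrna4 reach from -0.064 to 0.65. In every setting drawn the third Chrm1 probe and the second Chrm3 probe stay above 0, and the second Chrm1 probe stays below 0.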

How the data were processed

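RNA from 4 samples was hybridised in 1 colour (Cy3), and the authors deposited each array's scanner output, written by Agilent Feature Extraction (version 12.1.1.1, per the file headers). The intensity used, as deposited, is the processed signal. Per the file headers, background and spatial trends within an array had been removed from it, with no scaling between arrays. No spot was saturated.

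Spots flagged as outliers (47 to 70 per array) were left out, log2 signals of a probe's spots were averaged (each receptor probe had 1 spot), and the array's 75th percentile was subtracted. Flags, deposited by the authors, are 0 or 1 values of another kind, and a probe counted as well above background where at least 0.5 of its spots were. Probes so called on at least 2 of 4 arrays, with a usable spot on all 4, were fitted one by one with limma 3.58.1 (R 4.3.3, two-sided, Benjamini-Hochberg). Genes came from RefSeq accessions without version (GRCm38.p6), naming 32994 of 56605 probes. Plots used matplotlib 3.10.9 in Python 3.11.15. The fit was run on simulated data with planted changes, which its mean estimates had to match. How many planted changes passed the threshold is not reported here.

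Receptors and gene lists were chosen with earlier results of these data known. Every receptor probe is named, with the 2 genes of smallest unadjusted p from each pathway list, the 2 brightest genes of marker lists where shown, and the 3 genes most like a receptor, though not every such gene is reported here. Alternatives covered normexp (on median spot signal, since no mean was given), quantile scaling, another percentile, filters, variance model, probe summaries, the replicate block and leaving out each array.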

Additional observations from a re-analysis of the deposited data

How the results depend on the processing

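Receptor probes past the adjusted threshold numbered 0 under all 13 alternatives (0 also at an unadjusted p under 0.05), and the smallest adjusted p of a receptor probe was 0.463. Over all probes the count was 25 with normexp and 53 with an intensity trend and robust variances, against 0 in the other 11. Of the 124 receptor values under alternatives, 108 kept their direction and 16 reversed, 11 of these with an array left out. In this count the mean over a gene's probes was set against its brightest probe. With normexp Chrna7 differed by 0.070 and Chrm5 by 0.0097, with quantile normalization Chrm2 by -0.015 and Chrm4 by -0.041, with the percentile over probes detected on all arrays Chrna7 by 0.0075, and with probes averaged per gene Chrm3 by 0.10 and Ubxn2a by 0.0082. Leaving out each array in turn gave -0.17 to 0.18 for the brightest Chrm1 probe, -0.27 to 0.33 for Chrm2, -0.13 to 0.058 for the brightest Chrm3 probe, -0.084 to 0.087 for Chrm4, -0.064 to 0.65 for Chrna4, -0.22 to 0.22 for Chrna7, -0.053 to 0.19 for Chrnb2 and -0.27 to 0.13 for Chrm5. The cause of the reversals was not tested. The arrays left alone in a group are assumed to vary like the other group. With the replicate number as a block 0 probes passed, receptors included. Deviations of same-numbered arrays had a correlation of -0.021 over probes, and the labels give these numbers no further meaning. The receptor signal nearest to background was that of Chrm2, at 1.89 to 2.83 times the lowest signal called well above background on the 20-fold iodine arrays and 1.96 to 3.00 times on the control arrays. The slide could not be fitted as a block, since there was 1.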
